A study of Mus musculus with 18 samples.

Results

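The genes described here encode 10 ion channels that open, or are modulated, when membranes are stretched or cells are deformed: Piezo1, Piezo2, Trpm7, Trpm4, Trpv2, Trpv4, Trpc1, Pkd1, Pkd2 and Kcnk2. They were looked up by symbol, and all 10 were found among the 22019 genes of a normalized mRNA expression table. Of these, 9 were among the 16021 genes kept for testing, which had to exceed the floor of the table (a value of 1) in 3 or more of the 18 libraries. Trpc1 did not pass. The study asked how the LINC complex, which ties the cytoskeleton to the nucleus across the nuclear envelope, and substrate rigidity control gene expression in NIH 3T3 mouse fibroblasts. All cells were Tet-On cells given doxycycline (1 µg/ml) and grown for 48 hr on fibronectin-coated polyacrylamide gels of 1 kPa (soft) or 308 kPa (stiff). SUN1L cells expressed SS-HA-Sun1L-KDEL, the lumenal domain of SUN1, which acts as a dominant negative on the LINC complex, and KDEL cells expressed SS-GFP-KDEL as the control. There were 3 libraries each of KDEL and SUN1L cells on either rigidity, and KDEL cells on 308 kPa were in addition treated with the inhibitor Y27 (25 µM, 3 libraries) or blebbistatin (a myosin II inhibitor, 10 µM, 2 libraries) for 48 hr. The inhibitors were not used on SUN1L cells or on 1 kPa. SUN1L and KDEL were separate retrovirally transduced lines, and the KDEL line alone was enriched by fluorescence sorting, so that construct and line cannot be told apart. The remaining library, number 34, is labelled as empty vector with Y27 in one place and with blebbistatin in another. Its expression values stand under a different library number, which is the title of no sample. They were assigned to it by the name above them, empty vector with Y27. Library 34 was kept out of the comparisons, and differences with an inhibitor are also given with it counted as that inhibitor.

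Mechanosensitive channels turn tension in the membrane or the cytoskeleton into ion flow, often calcium entry, within milliseconds, so their activity is set mainly by gating. How much channel a cell can use also depends on how much of its mRNA and protein is made, and only mRNA was measured here. Piezo proteins are opened directly by membrane tension, several TRP channels are opened or modulated downstream of it, polycystins are known from primary cilia and polycystic kidney disease, and Kcnk2 (TREK-1) passes potassium and opposes depolarisation. In fibroblasts such channels are known for roles in spreading, migration and the response to stiff matrix.

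Signals are the deposited expression values, scaled between libraries by trimmed mean of M-values, linear and not divided by gene length, with 1 as the lowest value. The estimated depth was between 12670000 and 19460000 read pairs per library. All 10 fibroblast markers had a mean signal of at least 100, and of 25 endothelial, epithelial, muscle, immune and neural markers only Tek, Krt14, Cdh1 and Des did. Sun1, whose lumenal domain is part of the SUN1L construct, had a mean signal of 64778 ± 17258 (SD, n = 3) in SUN1L and 3181 ± 362 (SD, n = 3) in KDEL cells on 1 kPa. Libraries 3 (SUN1L, 1 kPa), 7 (SUN1L, 308 kPa) and 8 (KDEL, 308 kPa) stood apart: the mean log2 signal of 20 genes of the G2/M phase of the cell cycle was 8.61, 8.86 and 9.2 there and 11.48 to 12.26 in the other 15. Values of a group are listed in the order of their library numbers. These form a first run (3 to 12), a second (15 to 24) and a last (27 to 36), and every condition has a library in each of them except blebbistatin, which has none in the last.

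Piezo1 was the most abundant member. In KDEL cells its signal was 17272, 17512 and 13232 on 1 kPa and 14186, 16379 and 13124 on 308 kPa. In SUN1L cells it was 13307, 15770 and 15293 on 1 kPa and 12240, 14469 and 11627 on 308 kPa. All 18 libraries lay within 1.57-fold of each other, and 98.0% of tested genes had a lower mean. Piezo1 (ENSMUSG00000014444) lies on the minus strand at chr8:122481698-122551329 (GRCm38), and the plus-strand gene model Gm20388 shares all 69632 bases of it while Ctu2 shares 2441. Since use of strand in counting is not stated, reads of Piezo1 and these genes cannot be told apart. Piezo2 (ENSMUSG00000041482), the Piezo channel best known from touch and proprioceptive neurons, was at the lowest value in 11 of 18 libraries. Its highest signal was 5.441, in library 7, and no library held more than about 3 read pairs.

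Among the TRP channels, Trpm7, a cation channel fused to a kinase that carries magnesium, zinc and calcium, was the most abundant. Its signal was 8586, 8262 and 6777 in KDEL cells on 1 kPa and 6187, 9359 and 5905 on 308 kPa. In SUN1L cells it was 6385, 8117 and 6228 on 1 kPa and 8733, 9085 and 4370 on 308 kPa. The groups overlapped, and the lowest and highest of all 18 libraries, 4370 and 9359, both came from 308 kPa without inhibitor. Trpm4, a channel opened by calcium that passes sodium, had signals of 542.4, 726.6 and 589.2 in KDEL cells on 1 kPa and 547.3, 651.0 and 463.8 on 308 kPa. In SUN1L cells the Trpm4 signal was 644.2, 681.6 and 612.4 on 1 kPa and 454.1, 529.5 and 474.4 on 308 kPa. It stood at the middle of the expression range, with 49.6% of tested genes having a lower mean. Trpm7 (ENSMUSG00000027365) lies at chr2:126791565-126876230 and Trpm4 (ENSMUSG00000038260) at chr7:45303155-45333780, both on the minus strand (GRCm38).

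The 3 other TRP members were at or near the detection limit. Trpv4, a calcium channel opened by swelling and warmth, had signals of 12.72, 21.98 and 15.31 in KDEL cells on 1 kPa and 2.163, 9.381 and 11.76 on 308 kPa. In SUN1L cells it was 7.226, 8.51 and 19.42 on 1 kPa and 4.661, 15.16 and 10.03 on 308 kPa. These and the libraries with an inhibitor hold about 1 to 10.5 read pairs each, and the 3 lowest of 18 libraries were 8, 7 and 3. Trpv2, a cation channel of membranes and endosomes, lay between 1 and 20.67, about 0 to 8.31 read pairs. Trpc1, a subunit of cation channels linked to receptor signalling and store depletion, was at the lowest value in 16 of 18 libraries, with 2.335 in library 3 and 4.971 in library 19, about 1 and 2 read pairs. Trpv4 (ENSMUSG00000014158) lies at chr5:114622152-114658421 on the minus strand, Trpv2 (ENSMUSG00000018507) at chr11:62574486-62600515 on the plus strand and Trpc1 (ENSMUSG00000032839) at chr9:95705082-95750375 on the minus strand (GRCm38).

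Of the polycystins, Pkd1, the large receptor-like subunit, had signals of 5959, 5696 and 3745 in KDEL cells on 1 kPa and 6695, 5818 and 2776 on 308 kPa. In SUN1L cells the Pkd1 signal was 7194, 5824 and 4749 on 1 kPa and 6396, 5230 and 3041 on 308 kPa. In each of these 4 groups the lowest value came from the last run of library numbers. Pkd2, the channel-forming partner of Pkd1, had signals of 3958, 3645 and 3242 in KDEL cells on 1 kPa and 3603, 3863 and 3158 on 308 kPa. In SUN1L cells the Pkd2 signal was 3521, 3278 and 3046 on 1 kPa and 3895, 3307 and 2715 on 308 kPa. These 4 groups overlapped as well. Pkd1 (ENSMUSG00000032855) lies on the plus strand at chr17:24549950-24596514 and shares 578 bases with Tsc2 on the other strand, and Pkd2 (ENSMUSG00000034462) lies on the plus strand at chr5:104459450-104505819 (GRCm38).

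Kcnk2, the potassium channel of the set, had signals of 608.4, 615.0 and 856.8 in KDEL cells on 1 kPa and 387.0, 592.7 and 744.7 on 308 kPa. In SUN1L cells it was 350.1, 582.2 and 673.1 on 1 kPa and 379.5, 596.5 and 655.1 on 308 kPa. In all 4 groups the library of the last run was highest and that of the first run lowest. Kcnk2 (ENSMUSG00000037624) lies at chr1:189207930-189402273 on the minus strand (GRCm38).

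Divided by transcript length, Piezo1 had the highest level, with a median of 1726 signal units per kb over 18 libraries (1415 to 2215). Trpm7 followed with a median of 1077 per kb (615 to 1317) and Pkd2 with 697 per kb (520 to 980), and the ranges of Trpm7 and Pkd2 overlapped. Below them came Pkd1 with a median of 371 per kb (196 to 508), Kcnk2 with 169 per kb (98 to 252) and Trpm4 with 137 per kb (106 to 169), each overlapping the next. Trpv4 (median 3.94 per kb) and Trpv2 (2.24 per kb) came next, and Trpc1 (0.332 per kb) and Piezo2 (0.0951 per kb) were last. The medians of Trpc1 and Piezo2 are the lowest value of 1 divided by transcript length, so they do not order these genes by level. Before division by length the mean signal was 1.295 for Trpc1 and 1.904 for Piezo2. The range of Piezo1 did not reach that of Trpm7, nor that of Pkd2 the range of Pkd1.

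**Figure D1:**
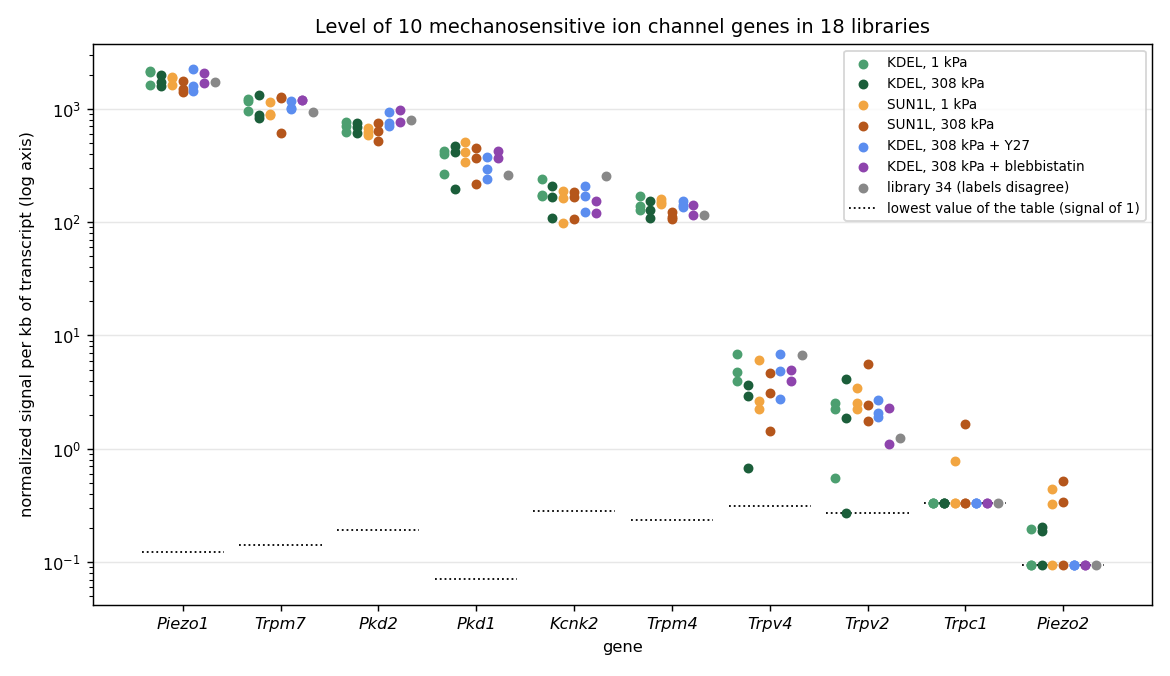
Expression level of each member per kb of transcript (log axis) in all 18 libraries. Each point is 1 library; Piezo1 lies between 1415 and 2215 per kb, whereas Trpv4, Trpv2, Trpc1 and Piezo2 lie below 7 per kb.

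To set these levels beside the sequence at the 5′ end of the genes, the 250 bases before the RefSeq start site were read for the 8 members present in the promoter table (GRCm38.p6). Kcnk2 has 4 promoters there and Trpv2 has 3. For these the one nearest the gene start was taken, and CG pairs of their others are not given. Shown are an abundant channel with many CG pairs (Piezo1, chr8:122551330-122551579, minus strand), an abundant channel with few (Pkd2, chr5:104459207-104459456, plus strand) and a pair of scarce channels with many (Trpv4, chr5:114658422-114658671, minus strand, and Trpc1, chr9:95750349-95750598, minus strand). Each runs 5′ to 3′ on the strand of the gene, and capitals mark CG pairs.
Piezo1: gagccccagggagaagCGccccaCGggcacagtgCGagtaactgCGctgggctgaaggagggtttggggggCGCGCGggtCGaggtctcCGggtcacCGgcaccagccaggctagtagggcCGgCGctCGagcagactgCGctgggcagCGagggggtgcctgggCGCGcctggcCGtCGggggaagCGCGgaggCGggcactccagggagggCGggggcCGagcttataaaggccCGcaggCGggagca
Pkd2: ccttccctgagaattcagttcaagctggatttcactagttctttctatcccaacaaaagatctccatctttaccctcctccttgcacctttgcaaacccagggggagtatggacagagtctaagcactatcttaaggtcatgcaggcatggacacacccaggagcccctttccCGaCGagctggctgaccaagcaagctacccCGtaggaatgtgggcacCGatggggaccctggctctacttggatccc
Trpv4: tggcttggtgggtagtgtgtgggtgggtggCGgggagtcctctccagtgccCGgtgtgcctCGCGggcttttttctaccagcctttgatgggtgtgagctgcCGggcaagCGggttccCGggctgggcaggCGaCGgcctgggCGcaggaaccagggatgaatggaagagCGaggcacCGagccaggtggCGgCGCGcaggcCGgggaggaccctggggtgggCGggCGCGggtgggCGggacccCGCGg
Trpc1: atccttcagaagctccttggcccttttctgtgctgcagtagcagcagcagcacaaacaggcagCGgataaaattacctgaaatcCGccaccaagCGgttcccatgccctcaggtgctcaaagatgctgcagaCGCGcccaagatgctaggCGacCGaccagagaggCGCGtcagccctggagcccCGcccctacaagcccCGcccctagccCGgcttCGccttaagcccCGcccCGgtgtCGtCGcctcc
The number of CG pairs did not order with the level. Piezo1 and Trpm7 each had 26, more than 90.4% of all 32851 promoters of that length, yet Trpv4 had 22 and Trpc1 17, whereas Pkd2 had 4 and Kcnk2 had 5, below the median of 6. Pkd1 had 16 CG pairs and Trpv2 had 2. The letters GGGCGG, the core of an Sp1 site, occurred on either strand in Piezo1, Trpv4, Trpc1 and Pkd1 and in 32.7% of all promoters. The letters TATAAA occurred in Piezo1 alone among the 8, with the first base 24 bases before the start, and in 12.4% of all promoters.

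To ask whether rigidity altered these mRNAs, 308 kPa was compared with 1 kPa within each construct by limma on log2(signal + 1). A gene was called at an adjusted p (Benjamini-Hochberg over all tested genes) under 0.05 with at least a 2-fold difference. In KDEL cells no member was called and none had an unadjusted p under 0.05 by limma, beside 0% of all tested genes called and 1.37% at an unadjusted p under 0.05. Of 9 tested members, 8 had a lower mean of log2(signal + 1) on 308 kPa, with a median log2 difference of -0.13 against -0.01 over all tested genes, of which 47.5% had a higher mean. In SUN1L cells 0 of 9 members were called by limma and 1, Trpm4, had an unadjusted p under 0.05, beside 0% of all tested genes called and 1.93% at an unadjusted p under 0.05. A p that misses the threshold does not show that levels were equal, and intervals give what the data allow: the 95% interval stayed within 2-fold either way for Piezo1, Trpm7, Trpm4, Pkd1 and Pkd2 in KDEL cells and for Piezo1, Trpm7, Trpm4, Pkd2 and Kcnk2 in SUN1L cells.

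Trpm4 had the smallest unadjusted p of the members in this comparison. In SUN1L cells its 308 kPa values (454.1 to 529.5) all lay below its 1 kPa values (612.4 to 681.6), as was so in one direction or the other for 4.77% of all tested genes. The log2 difference was -0.41 (SE 0.16, 95% interval -0.77 to -0.05, 0.752-fold, limma unadjusted p = 0.0283, adjusted p = 1), and the exact permutation test on 3 against 3 libraries cannot go below 0.1. Within the 3 runs the Trpm4 log2 ratio was -0.50, -0.36 and -0.37, and without libraries 3, 7 and 8 the difference was -0.37 (limma unadjusted p = 0.122). In KDEL cells the Trpm4 log2 difference was -0.16 (SE 0.16, limma unadjusted p = 0.337, adjusted p = 1), with ratios within runs of 0.01, -0.16 and -0.34. The difference between constructs in this response, the interaction, was -0.25 (SE 0.23, limma unadjusted p = 0.304), so the response was not shown to depend on the construct. Over both constructs Trpm4 differed by -0.29 (SE 0.11, limma unadjusted p = 0.0299, adjusted p = 1), and without libraries 3, 7 and 8 by -0.26 (limma unadjusted p = 0.103). Of 24 alternative settings 17 had an unadjusted p under 0.05 (limma) and the sign held in all, but the smallest adjusted p was 0.424. These settings share libraries, so they are not independent.

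Trpv4 had the largest difference in KDEL cells but rests on few reads. In KDEL cells its values on 308 kPa (2.163 to 11.76) lay below those on 1 kPa (12.72 to 21.98), and in this comparison the groups did not overlap for 4.78% of all tested genes. The log2 difference was -1.21 (SE 0.59, 95% interval -2.50 to 0.09, limma unadjusted p = 0.0652, adjusted p = 1). Library 8, 1 of the 3 with low G2/M genes, held the lowest Trpv4 value, and without it the difference was -0.58 (limma unadjusted p = 0.29). In SUN1L cells the Trpv4 difference was -0.22 (SE 0.59), with ratios within runs of -0.54, 0.77 and -0.89, and the interaction was 0.99 (SE 0.83, limma unadjusted p = 0.261).

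The abundant members differed little. The log2 difference of Piezo1 between 308 and 1 kPa was -0.13 (SE 0.16) in KDEL and -0.21 (SE 0.16) in SUN1L cells, that of Pkd2 was -0.03 (SE 0.15) and -0.00 (SE 0.15), and that of Trpm7 was -0.16 (SE 0.28) and 0.03 (SE 0.28). For Pkd1 it was -0.08 (SE 0.36) and -0.32 (SE 0.36) and for Kcnk2 -0.30 (SE 0.32) and 0.04 (SE 0.32). Over both constructs, where 0% of all tested genes were called and 2.91% had an unadjusted p under 0.05, 0 of 9 members were called by limma and 1 (Trpm4) had an unadjusted p under 0.05. None had 6 libraries on 308 kPa that stood clear of the 6 on 1 kPa, beside 0.175% of genes. Since these are bulk samples, less RNA per cell and fewer cells with a transcript cannot be told apart in any of these values.

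**Figure D2:**
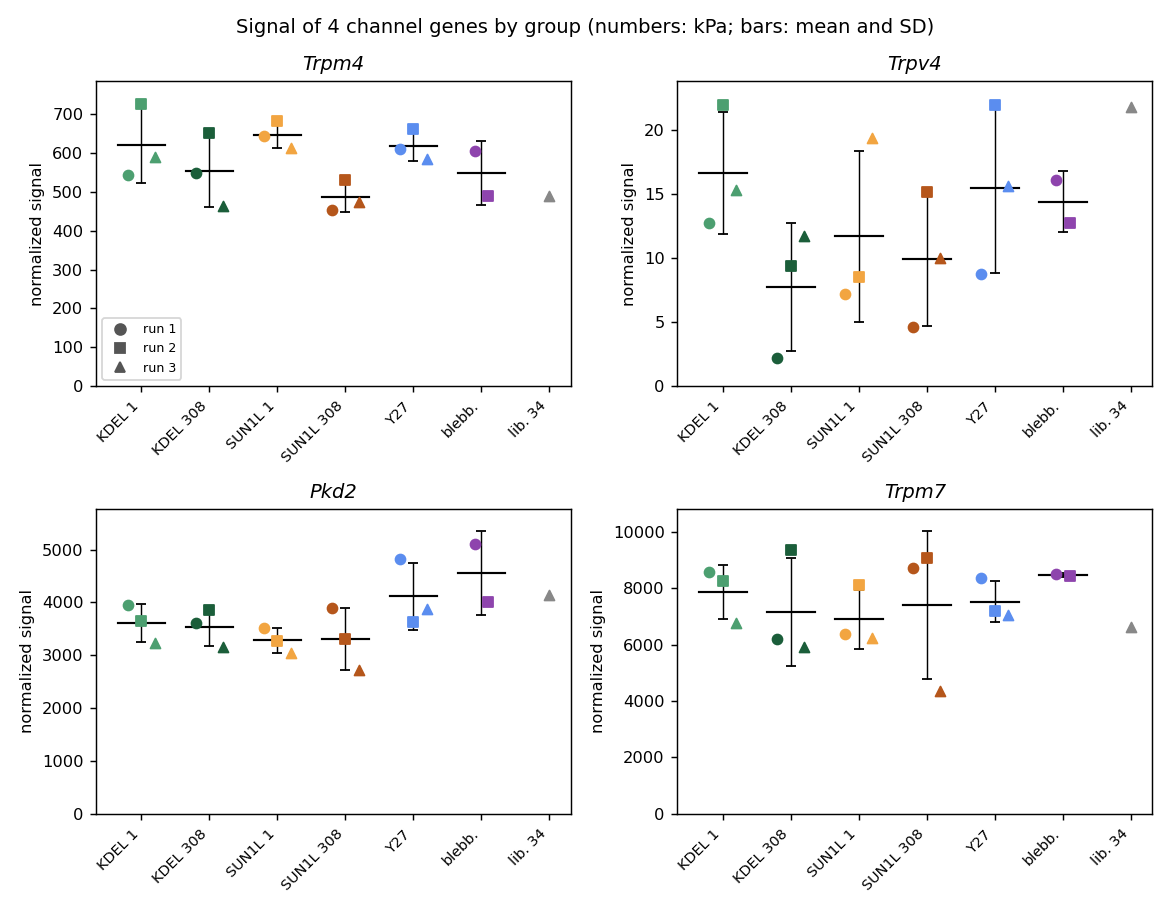
Normalized signal of Trpm4, Trpv4, Pkd2 and Trpm7 by group (linear axis from 0). Circles, squares and triangles are libraries of the first, second and last run of library numbers and bars give the mean and SD; Trpm4 in SUN1L cells lies between 454.1 and 529.5 on 308 kPa and between 612.4 and 681.6 on 1 kPa.

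Disruption of the LINC complex was addressed by comparing SUN1L with KDEL cells on gels of the same rigidity. On 1 kPa 0 of 9 members were called by limma and 0 had an unadjusted p under 0.05, beside 0.0874% of all tested genes called and 4.54% at an unadjusted p under 0.05. On 308 kPa the counts were again 0 and 0 of 9 by limma, beside 0.0624% called and 2.53%. Over both rigidities 0 of 9 were called and 0 had an unadjusted p under 0.05 by limma, beside 0.181% called and 6.8%. In each of these comparisons members lay on both sides, with 4 higher and 5 lower in SUN1L cells on either rigidity by mean log2(signal + 1), where 48.1% (1 kPa) and 42.9% (308 kPa) of all tested genes were higher. No member had values in SUN1L cells that stood clear of those in KDEL cells on either gel, which 14.5% of tested genes did on 1 kPa and 4.29% on 308 kPa.

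Piezo1 was 16005 ± 2405 in KDEL and 14790 ± 1306 in SUN1L cells on 1 kPa (mean ± SD, n = 3), a log2 difference of -0.11 (SE 0.16, 95% interval -0.45 to 0.24). On 308 kPa it was 14563 ± 1660 and 12779 ± 1496 (mean ± SD, n = 3), a log2 difference of -0.19 (SE 0.16, 95% interval -0.54 to 0.16). Within runs the Piezo1 log2 ratio of SUN1L to KDEL was -0.38, -0.15 and 0.21 on 1 kPa and -0.21, -0.18 and -0.17 on 308 kPa, and the limma unadjusted p on 308 kPa was 0.255 (adjusted p = 1). The groups overlapped on both gels. For the polycystins the differences were 0.22 (SE 0.36) and -0.03 (SE 0.36) for Pkd1 and -0.14 (SE 0.15) and -0.11 (SE 0.15) for Pkd2 on 1 and 308 kPa. Trpm7 differed by -0.19 (SE 0.28) and 0.01 (SE 0.28), and Trpm4 by 0.07 (SE 0.16) and -0.18 (SE 0.16). Kcnk2 differed by -0.41 on 1 kPa (SE 0.32, limma unadjusted p = 0.228, adjusted p = 0.93), with ratios within runs of -0.80, -0.08 and -0.35. With a block on runs of library numbers the unadjusted p of this difference was 0.0176 (limma, adjusted p = 0.325), and without library 3 the difference was -0.13. On 308 kPa Kcnk2 differed by -0.07 (SE 0.32). The largest differences were those of genes near the lowest value, and not all in one direction: Trpv4 at -0.56 (SE 0.59) on 1 kPa and 0.42 (SE 0.59) on 308 kPa, Trpv2 at 0.72 (SE 0.74) and 0.88 (SE 0.74), and Piezo2 at 0.68 (SE 0.48) and 0.55 (SE 0.48). Over both rigidities Trpv2 differed by 0.80 (SE 0.52, limma unadjusted p = 0.154, adjusted p = 0.859), and without libraries 3, 7 and 8 by 1.32 (limma unadjusted p = 0.052, adjusted p = 0.663). Piezo2 was above the lowest value in 4 of 6 SUN1L and 3 of 6 KDEL libraries without inhibitor, with at most about 3 read pairs.

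The interaction of construct and rigidity asks whether the response to stiffness differed between the constructs. After Bonferroni correction, 0 of 9 members and 0% of all tested genes had a p under 0.05 by limma, with 0 of 9 members and 0.905% of genes at an unadjusted p under 0.05. The interaction was -0.08 (SE 0.22) for Piezo1, 0.03 (SE 0.21) for Pkd2, 0.20 (SE 0.39) for Trpm7 and 0.34 (SE 0.45) for Kcnk2. For Piezo1, Pkd2 and Trpm4 the 95% interval of the interaction stayed within 2-fold either way, and for the other 6 a 2-fold difference in response is within the interval.

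**Figure D3:**
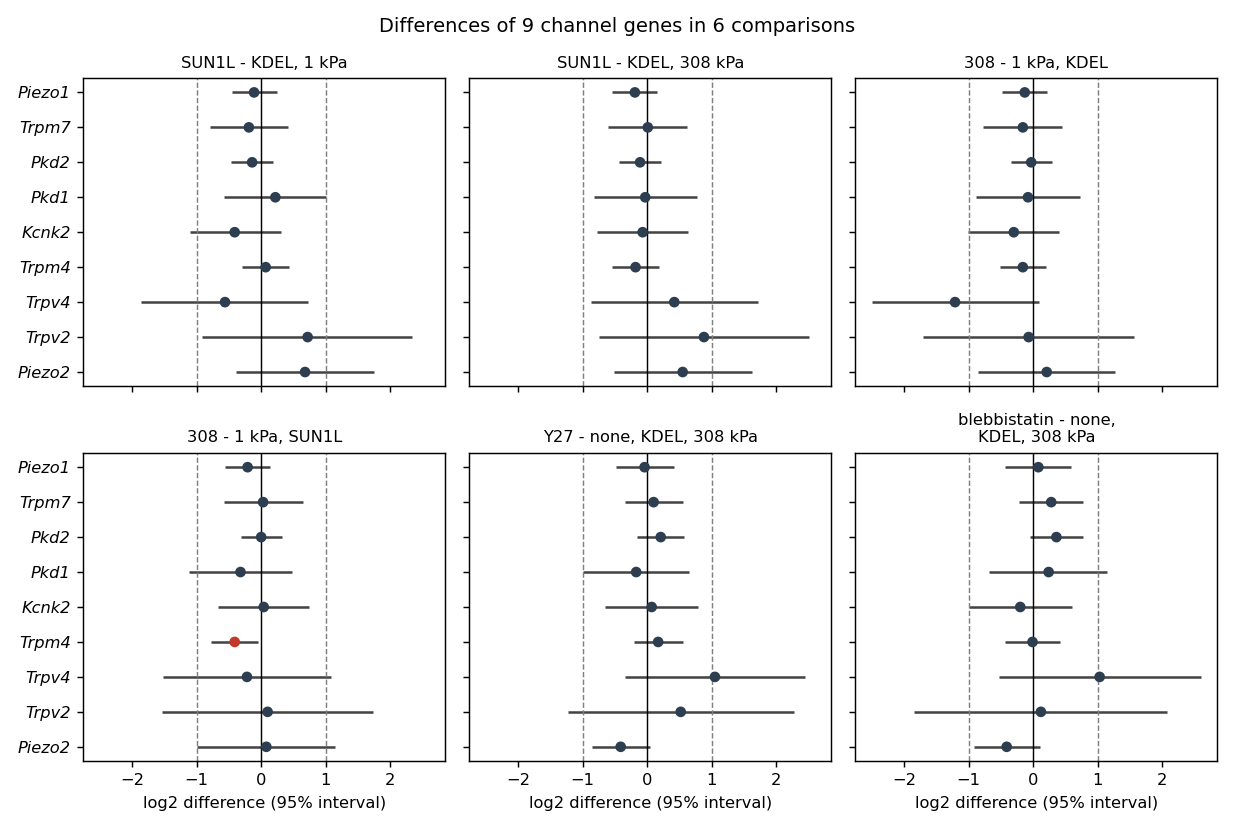
Log2 difference (x axis) of the 9 tested members with its 95% interval in 6 comparisons; dashed lines mark 2-fold. The red point, Trpm4 on 308 against 1 kPa in SUN1L cells at -0.41, is the one with an unadjusted p under 0.05.

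Inhibition of contractility was compared in KDEL cells on 308 kPa. With Y27, 0 of 9 members were called and 0 had an unadjusted p under 0.05 by limma, beside 0% of all tested genes called and 5.8% at an unadjusted p under 0.05. With blebbistatin, 0 and 0 of 9 passed by limma, beside 0% and 3.04%. Between the inhibitors it was 0 and 0 of 9 by limma, beside 0% and 2.32%. The untreated libraries are shared by the first 2 of these comparisons. Of 10 fibroblast markers 9 had a higher mean log2(signal + 1) with Y27, beside 52.3% of all tested genes. Sparc, Col1a1 and Col1a2 were higher at an unadjusted p under 0.05 (limma), beside 3.49% of all tested genes. With blebbistatin 10 of 10 were higher, beside 51.2%, with a median log2 difference of 0.41 and 0 at an unadjusted p under 0.05 (limma). Of 5 endothelial markers 3 were higher with Y27 (median log2 difference 0.17) and 1 with blebbistatin (median -0.72). With Y27, Tek had the smallest p of them at 2.85 (limma unadjusted p = 0.0122, adjusted p = 0.793), and Tie1 was at -0.89 (limma unadjusted p = 0.129, adjusted p = 0.854). Their part in the members' values was not tested.

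Pkd2 was the member with the smallest p under blebbistatin. Its signal was 3603, 3863 and 3158 without inhibitor, 5115 and 4002 with blebbistatin and 4827, 3632 and 3879 with Y27. Both blebbistatin values lay above the untreated ones, whereas those with Y27 overlapped them. The log2 difference was 0.36 for blebbistatin (SE 0.17, 95% interval -0.05 to 0.77, limma unadjusted p = 0.0757, adjusted p = 1), and 13% of all tested genes had groups that did not overlap in this comparison of 2 against 3 libraries. Within the 2 runs that hold both libraries the ratio was 0.51 and 0.05, and without library 10 the difference was 0.18. Counting library 34, at 4138, as blebbistatin gave 0.32 (limma unadjusted p = 0.0626). For Y27 the Pkd2 difference was 0.21 (SE 0.15, limma unadjusted p = 0.213, adjusted p = 0.854), also 0.21 (limma unadjusted p = 0.146) with library 34 counted as Y27.

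Trpv4 was at 8.799, 22.01 and 15.63 with Y27 and at 16.11 and 12.73 with blebbistatin, against 2.163, 9.381 and 11.76 without. Both blebbistatin values and 2 of 3 Y27 values lay above the untreated libraries. Between blebbistatin and untreated libraries, groups did not overlap for 13% of all tested genes. The log2 difference was 1.05 for Y27 (SE 0.59, limma unadjusted p = 0.117) and 1.03 for blebbistatin (SE 0.66, limma unadjusted p = 0.16), and without library 8 it was 0.43 and 0.41. Library 34 had a Trpv4 signal of 21.8, and counting it as Y27 or as blebbistatin gave 1.19 (limma unadjusted p = 0.0543) or 1.23 (limma unadjusted p = 0.0619).

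Trpm7 was at 8517 and 8428 with blebbistatin and at 8360, 7191 and 7042 with Y27. The value of 7042 is from the last run, which holds no library with blebbistatin. All Y27 values lay below both blebbistatin values, as groups did not overlap for 20.4% of all tested genes, and the log2 difference of Y27 against blebbistatin was -0.17 (SE 0.21, 95% interval -0.67 to 0.32, limma unadjusted p = 0.43) and -0.06 or -0.22 with library 34 as blebbistatin or as Y27. Against untreated cells Trpm7 differed by 0.10 (SE 0.19) with Y27 and by 0.28 (SE 0.21) with blebbistatin, or by 0.06 and 0.16 with library 34, at 6646, counted as Y27 and as blebbistatin. Blebbistatin was above the untreated library in the first run (8517 against 6187) and below it in the second (8428 against 9359). The untreated library of the last run, without a blebbistatin partner, was at 5905. Without library 20, the highest untreated one at 9359, the blebbistatin difference was 0.49 (limma unadjusted p = 0.00546, adjusted p = 0.703). Of 23 alternative settings this was the only 1 with an unadjusted p under 0.05 (limma). Leaving out single libraries gave 0.16 to 0.49 and the other settings -0.01 to 0.28, with the sign turned in 1 setting.

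Piezo1 was at 13055, 18202 and 11838 with Y27 and at 13866 and 16874 with blebbistatin, against 14186, 16379 and 13124 without. The groups overlapped, with log2 differences of -0.04 (SE 0.19, 95% interval -0.49 to 0.42) for Y27 and 0.08 (SE 0.21, 95% interval -0.43 to 0.59) for blebbistatin. Trpm4 differed by 0.17 (SE 0.16) with Y27 and by -0.01 (SE 0.18) with blebbistatin, Kcnk2 by 0.07 (SE 0.30) and -0.20 (SE 0.33), and Pkd1 by -0.17 (SE 0.34) and 0.24 (SE 0.38). Blebbistatin has no library in the last run, where untreated Pkd1 was at 2776 and untreated Kcnk2 at 744.7. In the first and second runs Pkd1 was at 6049 and 5218 with blebbistatin, below the untreated 6695 and 5818. Kcnk2 was at 427.8 and 543.2 there, against 387.0 and 592.7 untreated. With library 34 counted as Y27 the difference was -0.04 for Piezo1, 0.09 for Trpm4, 0.23 for Kcnk2 and -0.23 for Pkd1. Counted as blebbistatin it gave 0.04 for Piezo1, -0.06 for Trpm4, 0.10 for Kcnk2 and 0.03 for Pkd1, so that the sign for Kcnk2, highest of all in library 34, was turned. Leaving out single libraries also turned the signs of Kcnk2 (-0.19 to 0.28 for Y27, -0.46 to 0.01 for blebbistatin) and of Pkd1 (-0.56 to 0.07 for Y27, -0.15 to 0.48 for blebbistatin). Trpv2 differed by 0.52 (SE 0.73) with Y27 and by 0.12 (SE 0.82) with blebbistatin, or by 0.35 and 0.02 with library 34. Piezo2 was at the lowest value in all libraries with an inhibitor and in 1 of 3 without, and differed by -0.41 with Y27 (SE 0.19, limma unadjusted p = 0.0699, adjusted p = 0.827) and by -0.41 with blebbistatin (SE 0.21, limma unadjusted p = 0.0971, adjusted p = 1). With library 34, also at the lowest value, these Piezo2 differences had an unadjusted p of 0.0445 and 0.0567 (limma). The untreated Piezo2 signals behind them were 2.163, 1.0 and 1.96, about 1, 0 and 1 read pairs. All libraries with an inhibitor were tied at the lowest value, which adds no spread, so these p-values carry little weight.

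Several members differed with the run of library numbers. Kcnk2 had a mean signal of 431.1 ± 92.3, 590.1 ± 26 and 762.3 ± 98.4 in the first, second and last run (mean ± SD, n = 6 each). All last-run libraries (655.1 to 901.3) were above all others. Pkd1 was at 6261 ± 662, 5325 ± 631 and 3567 ± 687, and its last run (2776 to 4749) lay below its first (5272 to 7194). Trpm7 was at 7795 ± 1176, 8407 ± 768 and 6162 ± 966, with the last run (4370 to 7042) below the second (7191 to 9359). Of all tested genes, 11.9% did not overlap between the last and first run and 7.42% between the last and second. What a run stands for is not given by the labels. Along with it went a shift by transcript length: the median deviation of genes with transcripts from 4775 nt minus that of genes up to 1633 nt was -0.065 to -0.494 log2 in the last run and 0.062 to 0.253 elsewhere, except -0.115 in library 24. Its part in these members' values was not tested. Runs are balanced in the comparisons of rigidity, construct and Y27 but not in those with blebbistatin.

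**Figure D4:**
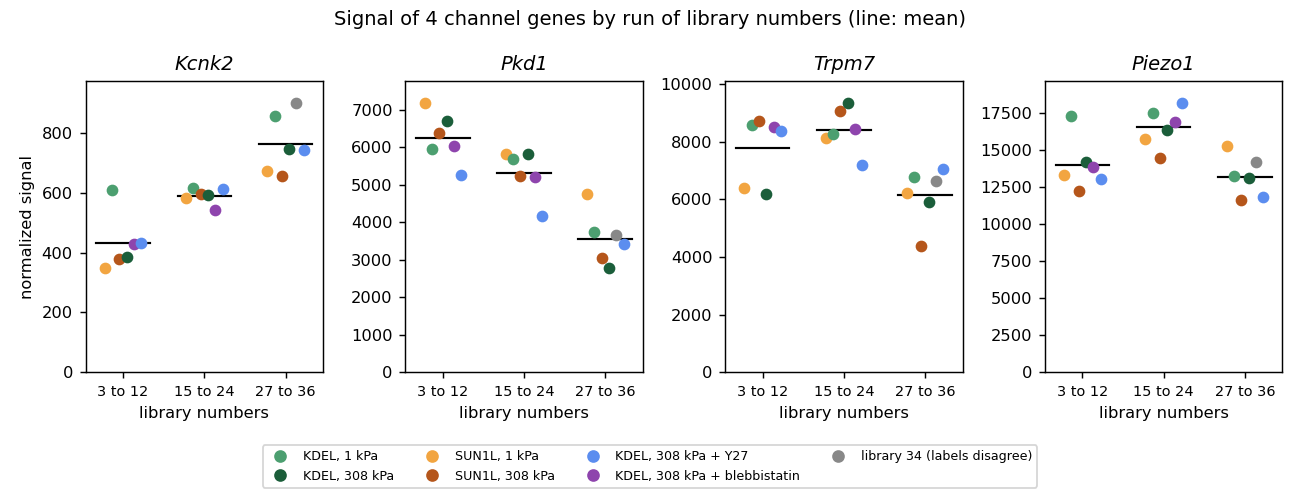
Normalized signal (linear axis from 0) of Kcnk2, Pkd1, Trpm7 and Piezo1 by run of library numbers. Each point is 1 library; Kcnk2 is highest in the last run (655.1 to 901.3), where Pkd1 is lowest (2776 to 4749).

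The genes with the most similar profile over 18 libraries are given as a description, by Pearson's r of log2(signal + 1), with r after subtraction of run means in brackets. Kcnk2 was nearest to Dkk2, a secreted Wnt modulator, with r = 0.948 (0.768), and Pkd1 to Arid1b, a chromatin remodelling subunit, with r = 0.955 (0.829). Trpm7 was nearest to Fnip1, a folliculin partner, with r = 0.965 (0.946), and Pkd2 to Dync2h1, the dynein heavy chain of ciliary transport, with r = 0.927 (0.917). For Trpm4 it was Pld3 with r = 0.922 (0.903), and for Piezo1 it was Adam19, a metalloprotease, with r = 0.865 (0.725). The second in each list were Rnf165, Zfp738, Chm, Tbl1xr1, Igsf8 and Efnb2, in the same order of members. The libraries share runs, depth and the shift by length, so r is not evidence of a relation.

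Genes around the members were read from 5 lists. Of 27 other genes of mechanosensitive channels 18 were tested, and 4 had a mean signal of at least 100: Tmem63b (3324), Tmem63a (2193), Asic1 (1930) and Tmc6 (439). None was called in any comparison. In SUN1L against KDEL cells over both rigidities, 3 of 18 were higher at an unadjusted p under 0.05, beside 3.77% of all tested genes, and none was lower. Tmem63b, an osmosensitive cation channel, had the smallest p. It was at 3081, 3417 and 3274 in KDEL and at 3963, 4190 and 4402 in SUN1L cells on 1 kPa, and on 308 kPa at 2864, 3263 and 3076 in KDEL and at 3642, 3853 and 3755 in SUN1L cells. All 6 SUN1L libraries were above all 6 KDEL libraries, as in one direction or the other for 0.974% of all tested genes, with a log2 difference of 0.33 (SE 0.07, limma unadjusted p = 0.000478, adjusted p = 0.142). Tmem63b did not reach 2-fold. With rigidity, Tmc6 alone of this list had an unadjusted p under 0.05, at -0.36 in SUN1L cells and -0.27 over both constructs, and in the interaction it was Tmc2 at -1.73, with signals of at most 8.499.

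Under Y27, 3 of 18 genes of this list were higher at an unadjusted p under 0.05, beside 3.49% of all tested genes, and none was lower. Asic1, a proton-gated sodium channel, was at 2481, 2971 and 3104 with Y27, at 1487, 1707 and 1651 without and at 2024 and 1560 with blebbistatin. All Y27 libraries were above all others of this line on 308 kPa, and against untreated cells groups did not overlap for 8.57% of all tested genes. The Asic1 log2 difference was 0.82 against untreated cells (SE 0.14, limma unadjusted p = 0.000656, adjusted p = 0.732) and 0.68 against blebbistatin (limma unadjusted p = 0.0034, adjusted p = 1), and library 34 was at 2593. Tmem63a, a relative of Tmem63b named here after its values were seen, was at 2925, 3107 and 2650 with Y27 against 1605, 1989 and 2351 without, a log2 difference of 0.56 (limma unadjusted p = 0.00979).

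**Figure D5:**
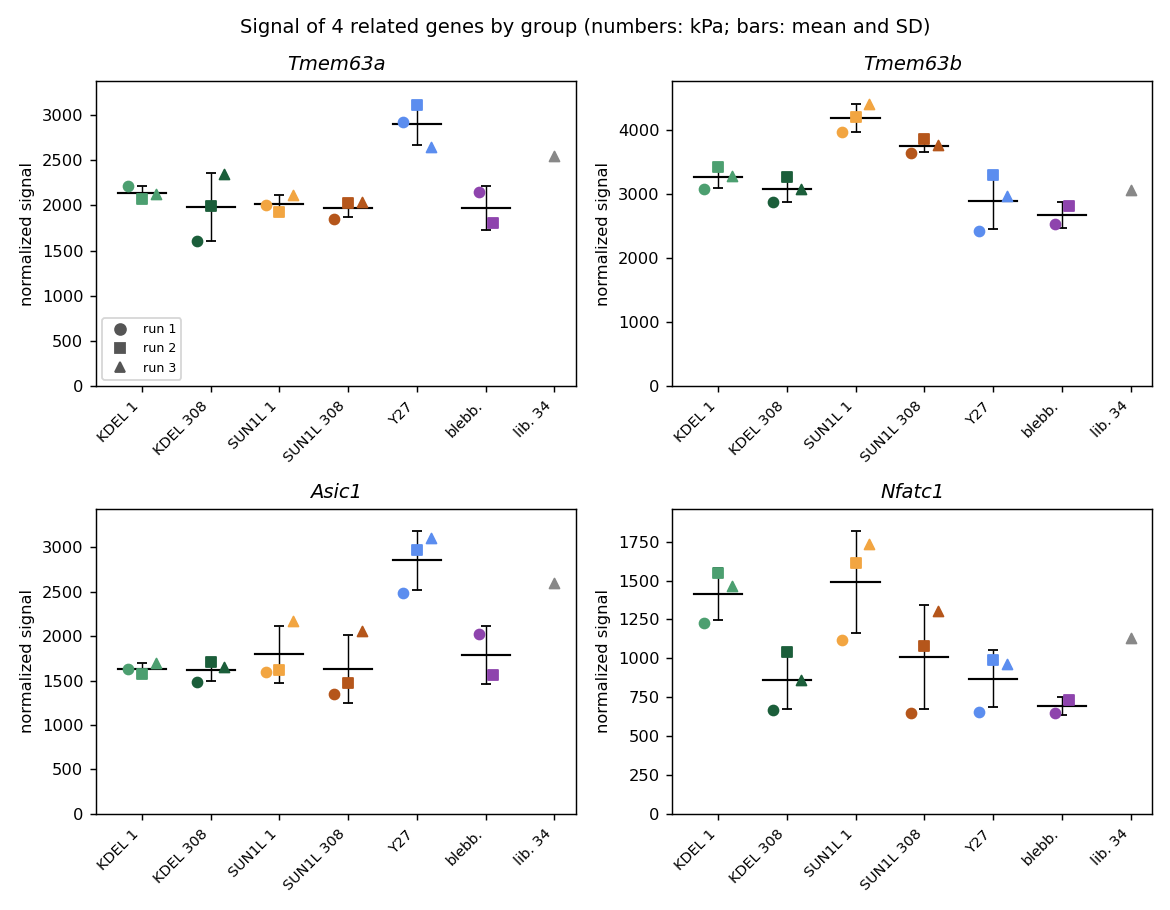
Normalized signal of Tmem63a, Tmem63b, Asic1 and Nfatc1 by group (linear axis from 0). Circles, squares and triangles are libraries of the first, second and last run and bars give the mean and SD; Tmem63b is at 3642 to 4402 in SUN1L and 2864 to 3417 in KDEL cells without inhibitor, and Asic1 at 2481 to 3104 with Y27.

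Of 22 other TRP and polycystin genes 18 were tested and 3 had a mean signal of at least 100, namely Mcoln1 (1564), a lysosomal channel, Pkd2l2 (1451) and Trpc2 (125.7). None was called. The genes with the smallest unadjusted p of this list (Trpm2, Trpm5, Trpv1 and Trpc7) all had a mean below 100. Trpm2, at no more than 6.419 in any library, differed by 1.35 in SUN1L against KDEL cells on 308 kPa (limma unadjusted p = 0.00627, adjusted p = 1) and by 1.33 on 308 against 1 kPa in SUN1L cells, with an interaction of 1.90. Trpm5 differed by 1.37 with Y27 (limma unadjusted p = 0.00149, adjusted p = 0.741) and by -0.60 on 308 against 1 kPa in KDEL cells. Trpv1 differed by 1.05 between constructs over both rigidities (limma unadjusted p = 0.0291), and Trpc7, near the lowest value, by 0.91 with blebbistatin and by -0.96 between Y27 and blebbistatin. Of 19 partners and regulators of these channels 18 were tested and 15 had a mean signal of at least 100, among them Cav1 (23401), the caveolar coat protein. Smpd3, a sphingomyelinase, was higher by 1.27 with Y27 (limma unadjusted p = 0.00735) and by 1.03 with blebbistatin (limma unadjusted p = 0.0293), and Atp2a2, the calcium pump of the endoplasmic reticulum, differed by -0.19 in SUN1L against KDEL cells over both rigidities (limma unadjusted p = 0.0426).

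No gene of calcium handling was called either. Of 24 genes of store-operated entry, pumps and release 21 were tested, of which 16 had a mean signal of at least 100. Under Y27, 3 of 21 were higher and none lower at an unadjusted p under 0.05 (limma), beside 3.49% and 2.31% of all tested genes. The plasma membrane pump Atp2b1 led them at 0.46 (limma unadjusted p = 0.016, adjusted p = 0.793). Atp2b4, another plasma membrane pump, was at -0.76 on 308 against 1 kPa over both constructs (limma unadjusted p = 0.0287). Atp2a3 was at 3.11 in SUN1L against KDEL cells on 1 kPa (limma unadjusted p = 0.0244), and its high values, 330.9, 230.8 and 232.3, were in libraries 3, 7 and 8. Orai1, the pore of store-operated channels, differed by 0.48 between Y27 and blebbistatin (limma unadjusted p = 0.0264).

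All 19 genes of calcineurin and NFAT, which read calcium and act on transcription, were tested. Nfatc1, a calcineurin target, was at 1225, 1551 and 1465 in KDEL cells on 1 kPa and at 669.1, 1042 and 862.4 on 308 kPa. In SUN1L cells the Nfatc1 signal was 1119, 1615 and 1736 on 1 kPa and 647.7, 1082 and 1305 on 308 kPa. Within each construct and run the value on 308 kPa was the lower one. The Nfatc1 log2 difference over both constructs was -0.66 (limma unadjusted p = 0.00523, adjusted p = 1), with -0.74 in KDEL cells (limma unadjusted p = 0.0197). Ppp3cb, a catalytic subunit of calcineurin, was at -0.27 in SUN1L against KDEL cells on 1 kPa (limma unadjusted p = 0.0457), and the calcineurin regulators Rcan3 at -0.29 on 308 kPa (limma unadjusted p = 0.0459) and Rcan1 at -0.33 with blebbistatin (limma unadjusted p = 0.0316). Nfatc2 was at -1.46 with Y27 (limma unadjusted p = 0.0267). None of these was called.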

How the data were processed

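Polyadenylated RNA was sequenced from 18 cultures of NIH 3T3 cells (NEBNext kit), and per the study's methods reads were aligned with TopHat (version 2.0) and quantified in AvadisNGS. The submitters' processing notes also name FastQC and SAMtools. The deposited values are a normalized signal, which the authors scaled by trimmed mean of M-values. It is linear, not per length, with 1 as the lowest value. Methods and labels name mm9, but 20126 of 20148 symbols (99.9%) overlap their RefSeq gene on GRCm38.p6, so coordinates are given on GRCm38. Whole reads could not be recovered, since at most 35.1% of values under 200 were whole multiples (tolerance 0.01), so read pairs are estimates and no count model was used.

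Genes that exceeded 1 in 3 or more libraries were tested on log2(signal + 1) by limma (version 3.58.1, R version 4.3.3) under a variance trend, in 12 libraries without inhibitor (4 groups) and in 8 libraries of KDEL cells on 308 kPa (3 groups). The script was tested on simulated data. Fold changes are on the log2(signal + 1) scale, which understates changes of low genes. All p-values are two-sided, and calls needed an adjusted p under 0.05 and 2-fold, or for the interaction a Bonferroni-corrected p under 0.05. The members and lists were chosen with earlier results of these data known. All members are named, and of each list every called gene, the gene of smallest unadjusted p under 0.05 per comparison and, for abundant members, the 2 genes with the highest r. Piezo2's position and sequence are not reported here, and promoter sequences of Piezo2 and Trpm4 were not used here. Alternatives varied the pseudocount (0.1 or 8), filter, trend, weights, libraries in the model, library 34, single libraries and a block on runs of library numbers. Leaving out libraries 3, 7 and 8 was added after seeing the data.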

Additional observations from a re-analysis of the deposited data

Results flagged for a closer look

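Library 34, whose labels name both inhibitors and an empty vector, entered no main comparison, and 3 of 10 members lay above all 3 untreated KDEL libraries on 308 kPa there, beside 21.5% of all 16021 tested genes. Its Kcnk2 signal of 901.3 was the highest of all 18 libraries, against 387.0 to 744.7 without inhibitor and 427.8 to 742.8 with either one. Library 34 belongs to the last run, where Kcnk2 was at 655.1 to 901.3, with 744.7 in untreated KDEL cells on 308 kPa and 742.8 with Y27. Its Pkd2 signal of 4138 stood above the untreated maximum of 3863 and within the 3632 to 5115 of the inhibited libraries, and 2 of the other 17 libraries were higher. Its Trpv4 signal of 21.8 stood above the untreated maximum of 11.76 and within the 8.799 to 22.01 of the inhibited libraries, and again 2 of 17 were higher. Library 34 is a single library, so none of these was tested.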

How the results depend on the processing

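No member was called in any comparison under any of 237 alternative counts, and the smallest adjusted p of a member was 0.813 as reported and 0.216 in any alternative (Trpv2, SUN1L against KDEL, block on runs without libraries 3, 7 and 8). Of 90 member tests, 42 kept their sign in every alternative and 48 changed it in at least one. The 48 include Piezo2 between Y27 and blebbistatin, whose difference of 0.00 has no sign to keep. Per kb of coding instead of transcript length, Kcnk2 moved from rank 5 to 4 and Pkd1 from 4 to 5, and the other 8 ranks held. Among these, the ranks of Trpc1 and Piezo2 rest mostly on the lowest value divided by length. No paired analysis was possible because the labels number no replicates, in the sense of pairs that the labels give, and the runs of library numbers, which the labels do not explain, were tried as a block in its place. With this block, Trpm4 on 308 against 1 kPa in SUN1L cells had an unadjusted p of 0.00488 (limma, adjusted p = 0.833). Counts over all genes moved more. SUN1L against KDEL on 1 kPa gave 14 called genes, 8 to 15 when leaving out single libraries, 55 with array weights, 22 with all 18 libraries in one model and 7 without libraries 3, 7 and 8. On 308 kPa it gave 10, 9 to 10 when leaving out single libraries, 16 with all 18 and 5 without these 3. Over both rigidities it gave 29, 18 to 27 when leaving out single libraries, 56 with array weights, 58 with the block, 43 with all 18 and 17 without these 3. Without libraries 3, 7 and 8, rigidity in SUN1L cells, rigidity over both constructs and the interaction gave 1 called gene each in place of 0, and Y27 gave 3 in place of 0 without library 8. The cause was not tested. Depth limits Piezo2, Trpc1, Trpv2 and Trpv4, at no more than about 10.5 read pairs per library.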
